A study of Hyacinthus orientalis with 189 samples.

Results

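The perianth tube of open hyacinth flowers was compared with the free perianth lobes of the same flowers. The tube samples were all 21 tube libraries of full anthesis (Stage A), 1 from each of 21 flowers, in a series of 63 flowers with 3 RNA-Seq libraries each. Each was set against the mean of the outer and the inner lobes of its own flower, from 42 lobe libraries. The flowers came from 7 cultivars of Hyacinthus orientalis with 3 flowers each, namely 'Jan Bos' (red), 'Pink Pearl' (pink), 'Gipsy Queen' (orange), 'City of Haarlem' (yellow), 'China Pink' (pinkish white), 'Delft Blue' (blue) and 'Peter Stuyvesant' (dark purple). Of these, 'China Pink' arose from 'Delft Blue' as a sport. All groups shared the same treatment: fungicide-soaked and cold-stored bulbs, grown outdoors. Stamens and pistil were taken out of every flower at dissection. Whether the 3 flowers of a cultivar came from separate bulbs was not stated, so the p-values speak for these flowers only. Green buds (Stage B) and coloured buds (Stage C) of the same cultivars, with 21 flowers each, were used only to ask how the difference between tube and lobes stood before anthesis. The partitions of 1 flower were treated as paired.

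In hyacinth the tepals are joined below into a tube and spread above as recurved lobes, and the stamens are inserted on the inner face of the tube, around the ovary. In the ABC model of flower development, B-class MADS-box proteins give petals and stamens their identity, and C-class proteins of the AGAMOUS type act in stamens and carpels. KNOX and BELL homeobox proteins pair with each other in meristems and organ bases, YABBY proteins mark the abaxial side of lateral organs, and boundary genes act where organs join or separate. Petal lobes are known for an epidermis rich in pigment, wax and scent enzymes. The comparison asked which of these programmes differed along the perianth of the same flower. No genome was used: a unigene is a cluster of transcripts assembled without a reference, and it has no chromosome position. Unigenes are named here by their best Swiss-Prot match, so that a name stands for similarity. Unigenes that share a name may be fragments or near-identical copies of 1 gene whose reads cannot be split with certainty. Levels are given in FPKM, fragments scaled to the length of the unigene and the depth of the library, for the lobes as the mean of outer and inner lobes of each flower.

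The 63 Stage A libraries held between 12896517 and 18986099 counts (13152509 to 14989450 in the tubes). Of 4 library measures, the share of counts taken by the 100 most counted unigenes was the only one past the threshold. It averaged 16.7% ± 1.38 in the tube and 20.5% ± 2.43 in the lobes (SD, n = 21 flowers), and was lower in the tube of every flower (two-sided paired permutation test, p = 1e-05, the smallest that 100000 resamples can give; p = 4e-05 adjusted over 4 measures). Mapping rate, total counts and the number of unigenes with a count had adjusted p of 0.734, 0.610 and 0.734 by the same permutation test. The tube of 'Gipsy Queen' flower 2 and the inner lobes of 'Peter Stuyvesant' flower 3 stood apart. In the inner lobes, 76397 unigenes had a count, while every other library had at least 114352. Their mean R2 with the other 2 libraries of their group was 0.784. Without this flower 8461 unigenes were higher in the tube and 5848 lower. The 'Gipsy Queen' tube had the lowest such R2. Its mean R2 with the other 2 tubes of its cultivar was 0.697, against a median of 0.868 over all libraries and their replicates. The summed FPKM of B-class unigenes, which should mark any petaloid organ, was 88.5 in this tube, between 692 and 2048 in the other tubes and between 351 and 2119.5 in the lobe libraries. The words fixed for that check matched only 1 unigene, with at most 1.05 FPKM in any tube, so the rice names of the B-class proteins were added after the values were seen. The same tube had the highest summed FPKM of photosynthesis unigenes, 47771, followed by 'Pink Pearl' flowers 2 and 3 with 30978 and 30644, while no other tube passed 10441. In 8 flowers, potyvirus unigenes took over 1% of the counts of the lobes, and in all 8 of them the share was lower in the tube. It was 0.0189% to 2.33% in the tube (median 0.451%), against 1.38% to 11.7% in the lobes (median 4.71%). The other 13 flowers had at most 0.118% in the tube and 0.64% in the lobes. Without these unigenes, the share of the 100 most counted averaged 16.6% ± 1.35 in the tube and 19.3% ± 1.41 in the lobes (SD, n = 21 flowers). It was lower in the tube in 21 flowers. Summed pollen and anther unigenes were highest in the tubes of 'China Pink' flower 3, 'Gipsy Queen' flower 1 and 'Jan Bos' flower 3. All these flowers were kept. Counts are also given without 'Gipsy Queen' flower 2, 'Peter Stuyvesant' flower 3 and the flowers with the highest photosynthesis or pollen sums. No fit left out the 8 flowers with over 1% potyvirus as a set. In bulk samples fewer cells of a type and less RNA per cell cannot be told apart, which holds for every value below.

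Of 112719 unigenes tested, 8359 were higher in the tube (7.42%) and 5893 lower (5.23%). A differentially expressed gene (DEG) had an adjusted p under 0.05 in edgeR's quasi-likelihood test with Benjamini-Hochberg adjustment and an absolute log2 fold change over 1. In the edgeR tests the outer and inner lobes of a flower entered as separate libraries. Their p-values and standard errors therefore mix scatter among flowers with scatter between the lobe libraries of a flower. With the lobes of a flower summed, 7367 unigenes were higher and 6805 lower. The median log2 fold change over all unigenes tested was -0.02. Of the DEGs, 776 were higher and 475 lower in all 21 flowers. Unigenes named below for their smallest p were taken only from these, so their shared direction is part of the choice. The ranges of tube and lobes overlapped for nearly all DEGs. The 21 tube values all lay above the 21 lobe values for 22 unigenes (0.0195% of those tested) and below them for 5 (0.00444%). Among the DEGs, 2151 of the higher ones had a mean of at least 5 FPKM in the tube and 1342 of the lower ones had that level in the lobes. With a filter that kept only unigenes with at least 10 counts in 21 libraries, 2942 were higher and 2114 lower, and these included 2781 of the 8359 and 2114 of the 5893.

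**Figure D1:**
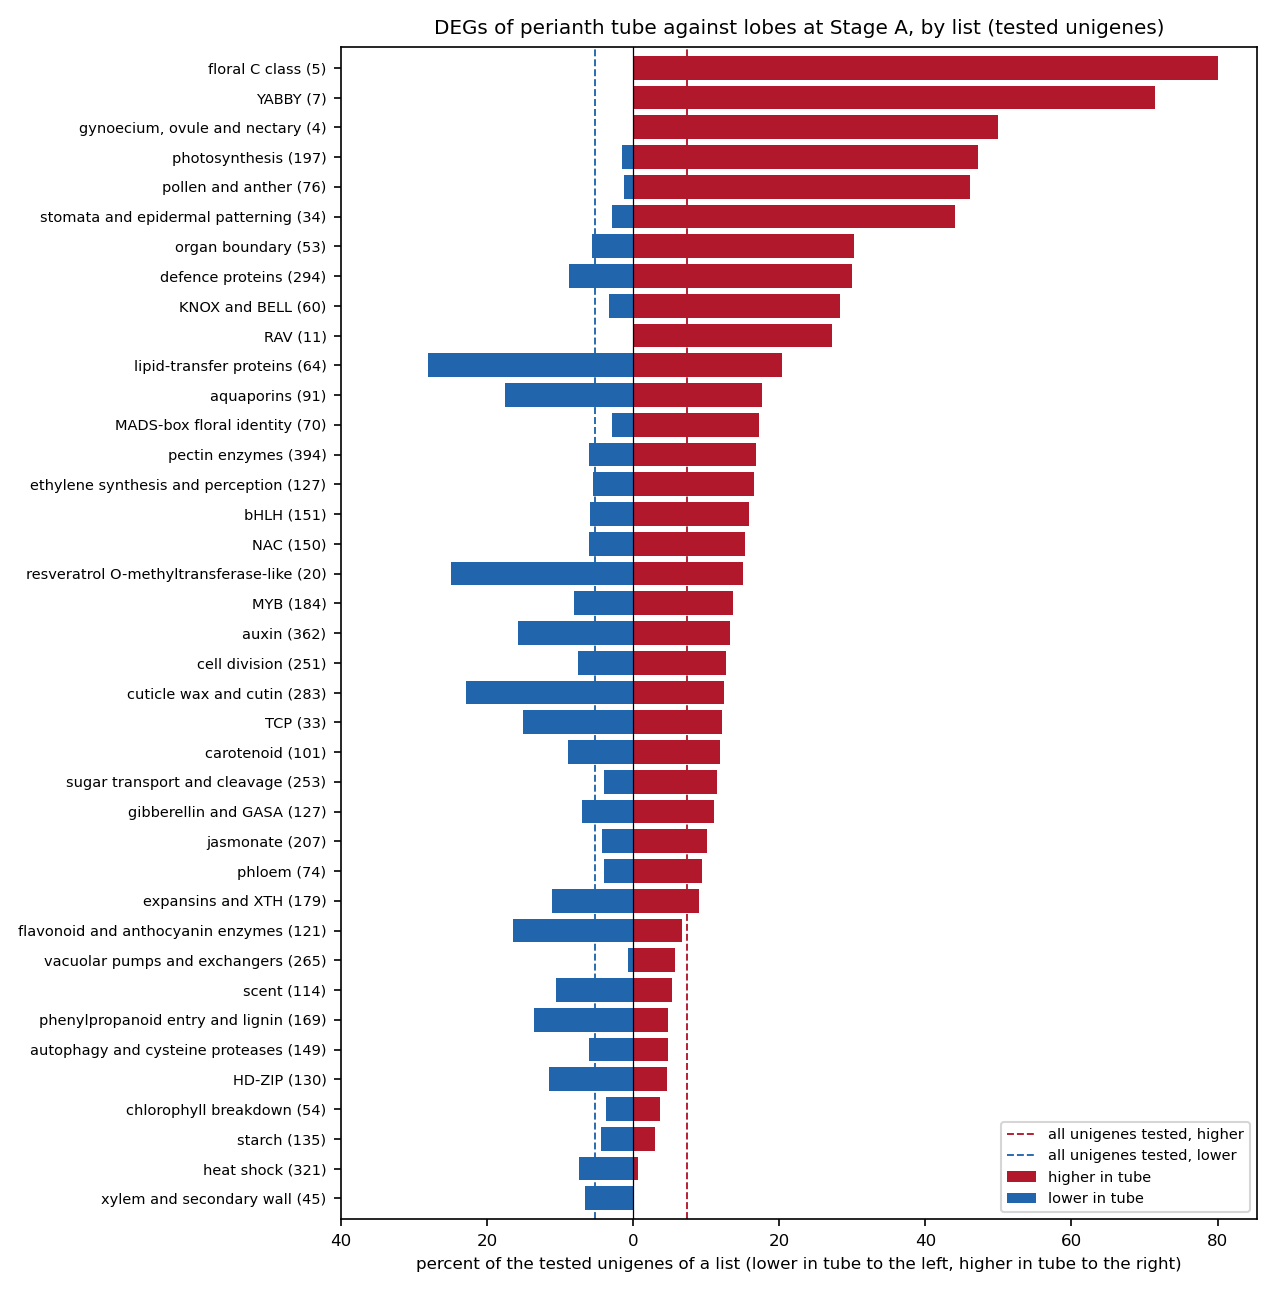
Percent of the tested unigenes of each of the 39 gene lists that were higher in the perianth tube (right) or lower (left) than in the lobes at Stage A, with the number tested in brackets. Dashed lines mark the shares over all unigenes tested, 7.42% higher and 5.23% lower. The floral C class, YABBY, gynoecium, photosynthesis and pollen lists reached furthest to the right, and the lipid-transfer protein list furthest to the left.

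Regulators of carpel and stamen identity were higher in the tube. In the floral C class list, 4 of its 5 tested unigenes were higher in the tube (80%, median log2 fold change 5.28), beside 7.42% over all unigenes. Its summed FPKM was 21 to 91 in the tube (median 49.6), against 2.28 to 9.7 in the lobes (median 5.56), with no overlap. Some markers of stamens and gynoecium were called higher in the tube too. Of the pollen and anther list, 35 of 76 tested unigenes were higher, and its sum was higher in the tube in 17 of 21 flowers. Of the gynoecium, ovule and nectary list, 2 of 4 were higher. Its summed FPKM was 8.62 to 105 in the tube (median 40), against 1.05 to 3.54 in the lobes (median 2.33). That sum was higher in the tube in all 21 flowers. It rested mainly on 1 member, the STIG1-like unigene described below, with a median of 36.8 FPKM in the tube. The part of these markers in the C class difference was not tested. The unigene with the smallest p of all named ones was the MADS1-like unigene (Cluster-20417.209235), named for an AGAMOUS-type protein of grape, which ranged from 5.8 to 34.8 FPKM in the tube (median 15.7), against 0 to 0.84 FPKM in the lobes (median 0.105). Every tube lay above every lobe value, with a log2 fold change of 6.75 ± 0.20 (SE; edgeR adjusted p = 2.32e-51). Without the 3 flowers with the highest pollen and anther sums its log2 fold change was 6.76. The AGAMOUS-like unigene (Cluster-20417.178664) ranged from 8.19 to 38.1 FPKM in the tube (median 22), against 0.93 to 8.54 FPKM in the lobes (median 3.4). Its lowest tubes overlapped the highest lobes, yet the tube was higher in all 21 flowers, by 2.75 ± 0.13 on the log2 scale. A second MADS1-like unigene had a median of 4.43 FPKM in the tube and 0 FPKM in the lobes (log2 fold change 5.62 ± 0.35), and a second AGAMOUS-like unigene had a median of 2.15 FPKM in the tube and 0 FPKM in the lobes (5.28 ± 0.26). The fifth member, AGL11-like, named for a protein of ovule identity, stayed at 0.04 to 0.31 FPKM in the tube and 0.055 to 0.265 FPKM in the lobes and was not called. In the whole MADS-box list, which also holds C class unigenes, 12 of its 70 tested unigenes were higher in the tube and 2 lower (17.1% and 2.86%, median log2 fold change 0.02). Of its 41 unigenes with a mean of at least 1 FPKM, 5 were higher and 1 lower. In the floral C class list, 3 unigenes had that level, and all 3 were higher. The SOC1-like unigene, named for a flowering-time integrator, ranged from 0.21 to 6.03 FPKM in the tube (median 1.13), against 0.85 to 9.68 FPKM in the lobes (median 4.66), and was lower in all 21 tubes (-1.67 ± 0.14). A B-class unigene matching rice MADS-box transcription factor 2, of the PISTILLATA type, had a median of 1274 FPKM in the tube and 1415 FPKM in the lobes, with a log2 fold change of -0.42 ± 0.07 that did not reach the fold threshold. STIG1-like, a secreted peptide known from stigmas of other plants, ranged from 6.34 to 102 FPKM in the tube (median 36.8), against 0 to 0.905 FPKM in the lobes (median 0.065). No tube value overlapped a lobe value (log2 fold change 7.74 ± 0.22, edgeR adjusted p = 2.84e-50). A DROOPING LEAF-like unigene, named for the rice YABBY protein of carpels, was near the detection limit with a median of 0.19 FPKM in the tube and 0 FPKM in the lobes (3.89 ± 0.54), and SPATULA-like stayed under the fold threshold (a median of 2.63 FPKM in the tube and 1.74 FPKM in the lobes).

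KNOX homeobox unigenes were the next group. In the KNOX and BELL list, 17 of its 60 tested unigenes were higher in the tube and 2 lower (28.3% and 3.33%, median log2 fold change 0.31), and its summed FPKM was higher in the tube in all 21 flowers. The knotted-1-like unigene (Cluster-20417.286052) ranged from 3.83 to 49 FPKM in the tube (median 28.8), against 0 to 1.58 FPKM in the lobes (median 0.28). The groups did not overlap (log2 fold change 5.85 ± 0.16, edgeR adjusted p = 8.36e-40). LET6-like (Cluster-20417.202047), named for a tomato KNOX protein, ranged from 0.31 to 19.5 FPKM in the tube (median 6.78), against 0 to 0.205 FPKM in the lobes (median 0.04), again without overlap (6.90 ± 0.20). KNOX3-like and rough sheath 1-like had medians of 17.5 and 7.63 FPKM in the tube, against 0.18 and 0.115 FPKM in the lobes, and both were higher in all 21 flowers. The rough sheath 1-like value of the 'Gipsy Queen' tube that stood apart was 0.1 FPKM, inside the lobe range of 0 to 0.69 FPKM. Other members differed less: knotted-1-like 10 had a median of 52.1 FPKM in the tube and 19.1 FPKM in the lobes (1.33 ± 0.07), and BEL1-like homeodomain protein 1 had a median of 15.5 FPKM in the tube and 4.99 FPKM in the lobes (1.36 ± 0.09). The members called lower were BEL1-like homeodomain protein 2 with a median of 0.32 FPKM in the tube and 1.65 FPKM in the lobes (-2.58 ± 0.16) and knotted-1-like 3 with a median of 5.78 FPKM in the tube and 12.3 FPKM in the lobes (-1.24 ± 0.16). The most abundant member that was not called, BEL1-like homeodomain protein 7, had a median of 93.7 FPKM in the tube and 98.3 FPKM in the lobes, with 9 flowers higher and 12 lower in the tube.

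In the YABBY list, 5 of its 7 tested unigenes were higher in the tube (71.4%, median log2 fold change 1.71). YABBY 2-like (Cluster-20417.273436) ranged from 10.5 to 71.2 FPKM in the tube (median 28), against 0.315 to 9.05 FPKM in the lobes (median 2.1), without overlap (3.52 ± 0.14). The rice YABBY 2-like unigene was the most abundant, with a median of 214 FPKM in the tube and 55.9 FPKM in the lobes, higher in all 21 flowers (1.71 ± 0.07). YABBY 1-like had a median of 2.18 FPKM in the tube and 0.17 FPKM in the lobes (3.18 ± 0.20), and YABBY 4-like was not called, with a median of 4.45 FPKM in the tube and 5.33 FPKM in the lobes. In the organ boundary list, 16 of its 53 tested unigenes were higher in the tube and 3 lower (30.2% and 5.66%, median log2 fold change 0.39), though without 'Gipsy Queen' flower 2 the counts were 10 of 49 higher and 4 lower. LIGHT-DEPENDENT SHORT HYPOCOTYLS 4-like, of a family that acts at organ boundaries, ranged from 0 to 36.7 FPKM in the tube (median 3.53), against 0 to 3.5 FPKM in the lobes (median 0.345), and was higher in 18 of 21 tubes (3.27 ± 0.25). LOB domain-containing protein 36-like went the other way, with a median of 0.74 FPKM in the tube and 3.19 FPKM in the lobes (-2.37 ± 0.25). Of the TCP factors, which restrain or promote cell division in leaves and petals, 4 of 33 were higher in the tube and 5 lower. These shares were 12.1% and 15.2%, beside 7.42% and 5.23% over all unigenes. TCP14-like had a median of 0.77 FPKM in the tube and 0.055 FPKM in the lobes (3.26 ± 0.22). TCP5-like, a petal and leaf growth regulator in Arabidopsis, ranged from 0 to 3.34 FPKM in the tube (median 0.53), against 0.44 to 21.7 FPKM in the lobes (median 3.59), and was lower in every tube (-3.25 ± 0.14). PCF6-like had a median of 0.76 FPKM in the tube and 1.23 FPKM in the lobes (-1.93 ± 0.29).

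**Figure D2:**
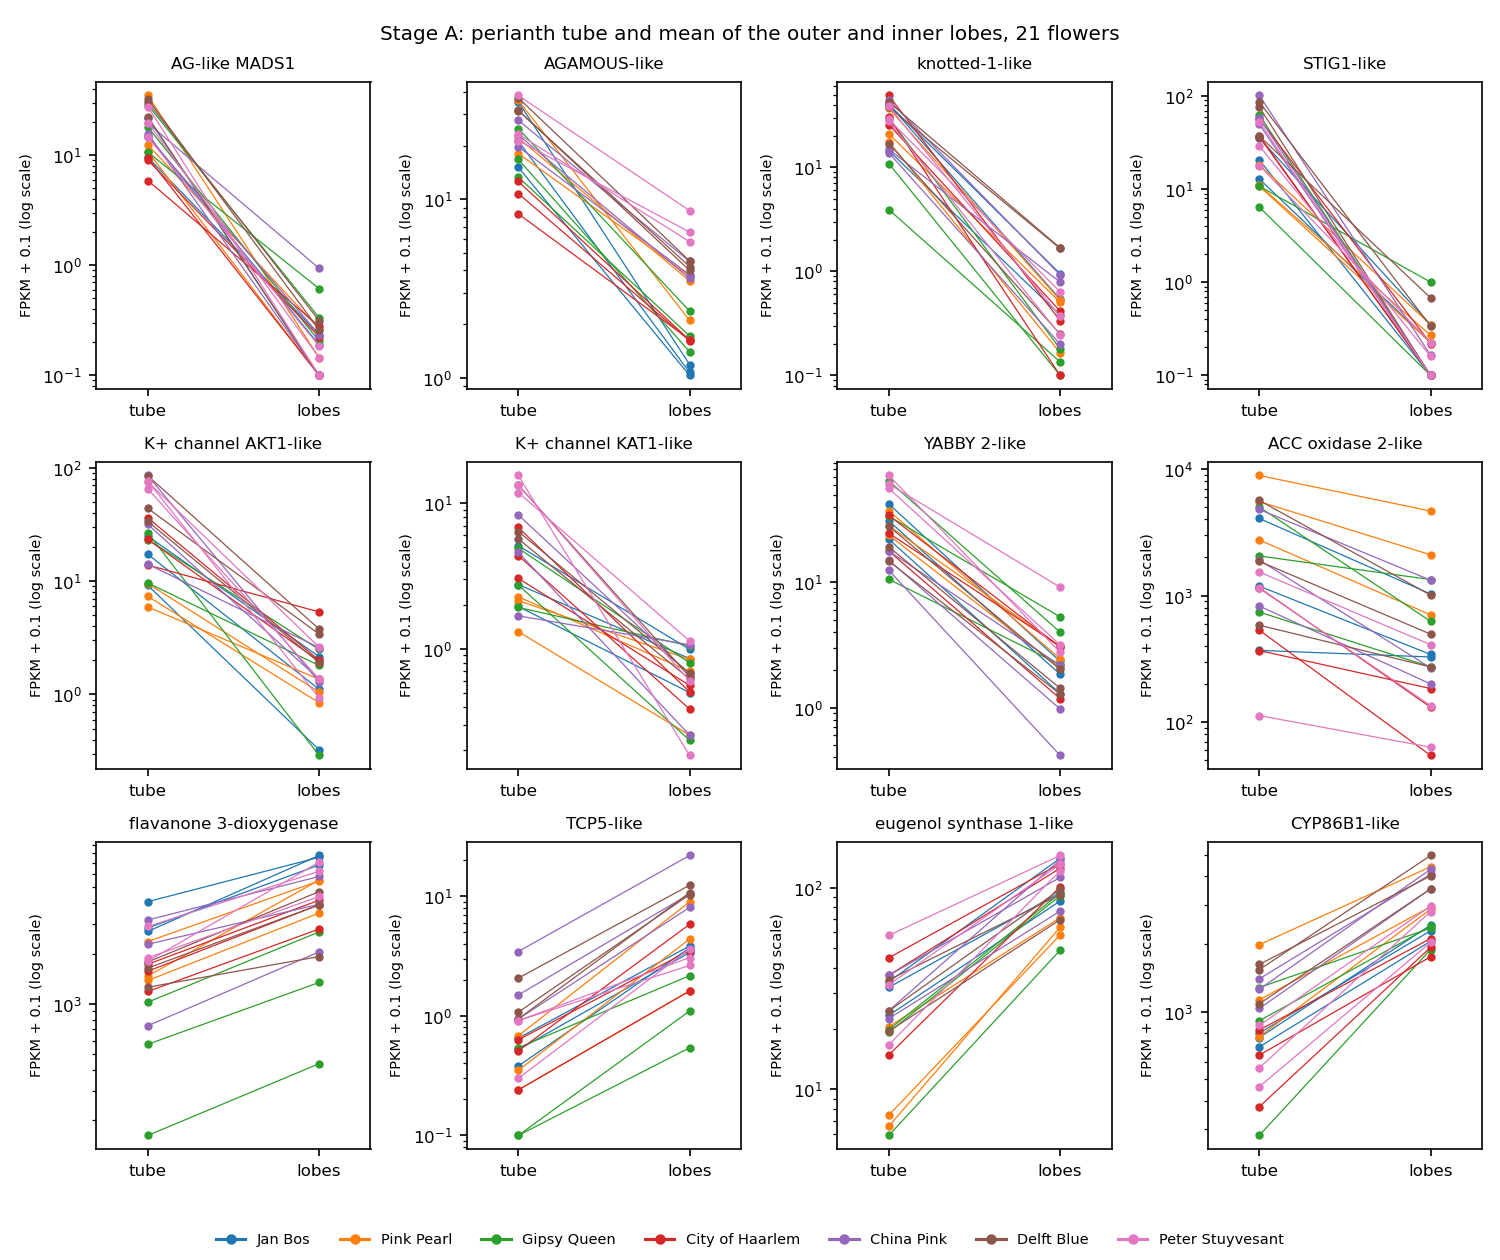
FPKM plus 0.1 on log axes of 12 unigenes at Stage A, perianth tube at the left and the mean of outer and inner lobes at the right of each panel. Each line joins the values of 1 of the 21 flowers, coloured by cultivar. The lines of the first 8 unigenes fall from tube to lobes in every flower, and those of the last 4 climb in every flower.

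The stomata list and the photosynthesis list had more unigenes higher than lower in the tube. In the stomata and epidermal patterning list, 15 of its 34 tested unigenes were higher in the tube and 1 lower (44.1% and 2.94%, median log2 fold change 0.38), and its summed FPKM was 61 to 113 in the tube (median 80.8), against 35.7 to 69.4 in the lobes (median 48), higher in the tube in all 21 flowers. Of the 14 listed unigenes with a mean of at least 1 FPKM, 5 were higher and 1 lower. The AKT1-like unigene (Cluster-20417.196481), which is outside this list, is named for an inward potassium channel of rice. It ranged from 5.8 to 85 FPKM in the tube (median 24.8), against 0.19 to 5.24 FPKM in the lobes (median 1.7). Tube and lobes did not overlap (log2 fold change 3.92 ± 0.18, edgeR adjusted p = 3.44e-31). KAT1-like, named for a guard cell potassium channel, ranged from 1.21 to 15.4 FPKM in the tube (median 4.5), against 0.085 to 1.03 FPKM in the lobes (median 0.54), also without overlap (3.02 ± 0.19), and KAT2-like had a median of 8.62 FPKM in the tube and 0.85 FPKM in the lobes (3.28 ± 0.20). FAMA-like, named for the factor that ends guard cell precursor division, went the other way with a median of 0.47 FPKM in the tube and 1.3 FPKM in the lobes, lower in 16 of 21 flowers (-1.37 ± 0.22). SCREAM2-like was not called, with a median of 15.4 FPKM in the tube and 15.5 FPKM in the lobes.

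In the photosynthesis list, 93 of its 197 tested unigenes were higher in the tube and 3 lower (47.2% and 1.52%, median log2 fold change 0.68), and 79 of its unigenes varied among cultivars in their difference (background 4.17%). Its summed FPKM was 1377 to 47771 in the tube (median 3496), against 1157 to 7012 in the lobes (median 1901), and was higher in the tube in 20 of 21 flowers. Without the 'Gipsy Queen' and 'Pink Pearl' flowers whose tubes had the highest sums, the counts were 68 of 193 higher and 3 lower. The part of those flowers in the rest of the difference was not tested. The most abundant DEG, matching chlorophyll a-b binding protein 40 (Cluster-20417.238061), ranged from 62.3 to 4656 FPKM in the tube (median 448), against 70.8 to 1733 FPKM in the lobes (median 180.0). It was higher in 20 of 21 tubes, by 1.22 ± 0.16 on the log2 scale, and by 0.98 without 'Gipsy Queen', just under the fold threshold. Another antenna protein, CP26-like, was not called, with a median of 62.5 FPKM in the tube and 84.1 FPKM in the lobes and a log2 fold change of -0.09 ± 0.16. Phytoene synthase, the entry enzyme of carotenoid synthesis, had a median of 22.2 FPKM in the tube and 6.83 FPKM in the lobes and was higher in all 21 tubes (1.49 ± 0.09). In the chlorophyll breakdown list, 2 of its 54 tested unigenes were higher in the tube and 2 lower (3.7% and 3.7%, median log2 fold change -0.23), while its summed FPKM was lower in the tube in 20 of 21 flowers. STAY-GREEN-like, the most abundant of those not called, had a median of 1763 FPKM in the tube and 2574 FPKM in the lobes (-0.80 ± 0.06).

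**Figure D3:**
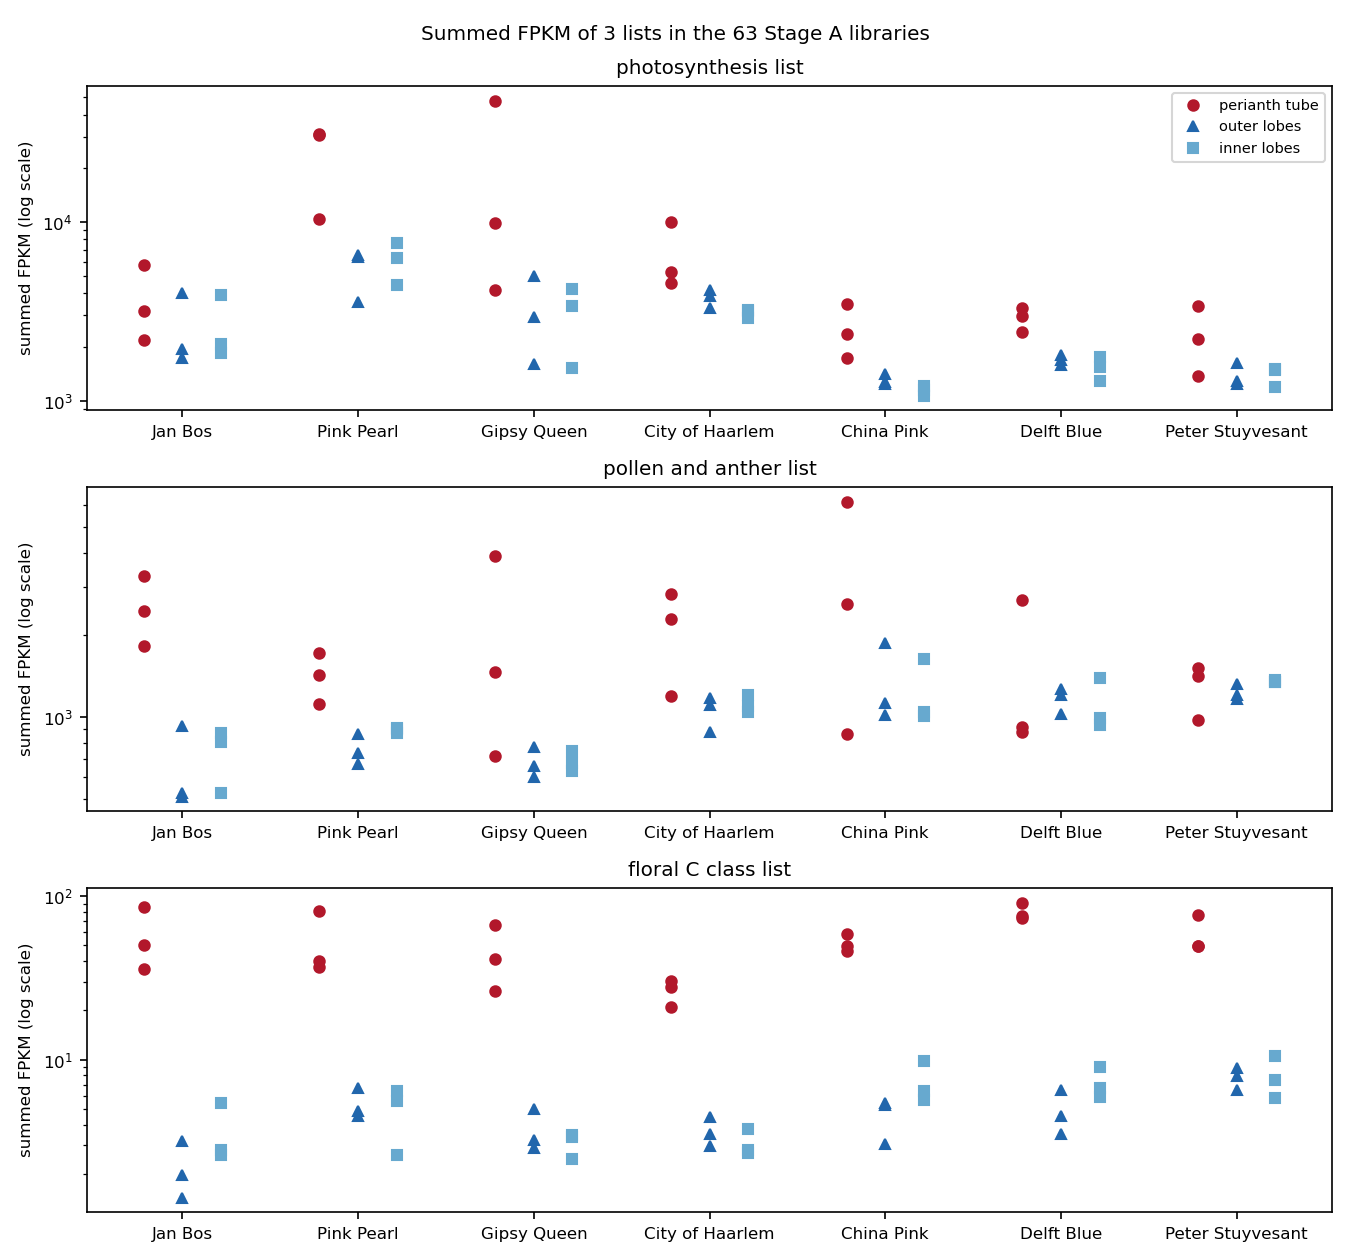
Summed FPKM on log axes of the photosynthesis, pollen and anther, and floral C class lists in each of the 63 Stage A libraries, by cultivar, with the perianth tube left of the outer and inner lobes. The 'Gipsy Queen' tube at 47771 and the 'Pink Pearl' tubes at 30978 and 30644 stand above all other libraries in the photosynthesis panel, and in the floral C class panel every tube (lowest 21) lies above every lobe library.

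Many unigenes named for pollen and anther proteins were higher in the tube, although the stamens had been removed. In this marker list, 35 of its 76 tested unigenes were higher in the tube and 1 lower (46.1% and 1.32%, median log2 fold change 0.54), and the summed FPKM was 720.3 to 6164 in the tube (median 1510.2), against 526 to 1747 in the lobes (median 1009). The sum was higher in the tube in 17 of 21 flowers. The pollen-specific protein C13-like unigene (Cluster-20417.266095) ranged from 6.09 to 2503 FPKM in the tube (median 393), against 0.62 to 259 FPKM in the lobes (median 31.5). The groups overlapped, and the tube was higher in 20 of 21 flowers (3.32 ± 0.30). Exopolygalacturonase-like, a pollen enzyme of maize, had a median of 79.6 FPKM in the tube and 6.77 FPKM in the lobes (3.34 ± 0.29), and a pollen-specific extensin-like unigene had a median of 113 FPKM in the tube and 7.96 FPKM in the lobes (3.43 ± 0.24). TAPETUM DETERMINANT 1-like, the most abundant member that was not called, had a median of 152 FPKM in the tube and 203 FPKM in the lobes. Several unigenes outside the list were also higher in the tube: SWEET5-like, a sugar transporter, with a median of 289.7 FPKM in the tube and 19.4 FPKM in the lobes (3.47 ± 0.33), polygalacturonase-like with a median of 155 FPKM in the tube and 12.2 FPKM in the lobes (3.36 ± 0.26) and a plasma membrane ATPase 4-like proton pump with a median of 32 FPKM in the tube and 3.54 FPKM in the lobes (3.07 ± 0.25). For all of these the difference was larger from the outer than from the inner lobes, for instance 4.09 against 2.86 for SWEET5-like and 3.78 against 2.85 for the C13-like unigene. Without the 3 flowers with the highest tube sums the counts of the list were 32 of 71 higher and 1 lower. Whether pollen or anther tissue was present on the tubes was not tested.

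The ethylene and defence lists had more unigenes higher than lower in the tube. Ethylene is made from ACC by ACC oxidase and is known to promote petal senescence in many flowers. In the ethylene list, 21 of its 127 tested unigenes were higher in the tube and 7 lower (16.5% and 5.51%, median log2 fold change -0.04), and its summed FPKM was higher in the tube in all 21 flowers (1527 to 24223 in the tube (median 4931), against 1403 to 13739 in the lobes (median 2320.0)). The ACC oxidase 2-like unigene (Cluster-20417.183895) ranged from 112 to 8909 FPKM in the tube (median 1535), against 54.2 to 4664 FPKM in the lobes (median 342). The ranges overlapped, but the tube was higher within each of the 21 flowers (1.73 ± 0.14, edgeR adjusted p = 1.35e-15), and the same held for the ACC oxidase 1-like unigene (1.78 ± 0.14). EIN3-binding F-box protein 2-like, which takes part in ethylene signalling, was not called (a median of 78 FPKM in the tube and 112 FPKM in the lobes). In the defence list, 88 of its 294 tested unigenes were higher in the tube and 26 lower (29.9% and 8.84%, median log2 fold change 0.13). Chitinase 12-like, of the enzymes that cleave fungal chitin, ranged from 1337 to 28365 FPKM in the tube (median 11969), against 5.88 to 19717 FPKM in the lobes (median 1118), and was higher in 20 of 21 tubes (4.12 ± 0.39). Chitinase 5-like had a median of 441 FPKM in the tube and 52.5 FPKM in the lobes (2.96 ± 0.18), and the defensin-like unigene (Cluster-20417.97651) had a median of 14.3 FPKM in the tube and 0 FPKM in the lobes (6.13 ± 0.20). Chitinase 9-like was the most abundant member that was not called, with a median of 22436 FPKM in the tube and 11477 FPKM in the lobes, and its log2 fold change of 0.49 ± 0.05 stayed under the threshold. Thaumatin-like protein 1a was lower in 20 of 21 tubes (a median of 1328 FPKM in the tube and 3830.5 FPKM in the lobes, -1.47 ± 0.19), as was a cysteine proteinase inhibitor in all 21 (a median of 283 FPKM in the tube and 2100.0 FPKM in the lobes, -2.66 ± 0.16). A plasma membrane ATPase, which energises transport across the cell membrane, had a median of 54.9 FPKM in the tube and 10 FPKM in the lobes (1.95 ± 0.13). In the list of vacuolar and plasma membrane pumps and exchangers, 15 of its 265 tested unigenes were higher in the tube and 2 lower (5.66% and 0.755%, median log2 fold change -0.02), both shares under those over all unigenes. Its summed FPKM was higher in all 21 tubes.

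Other cell wall and growth factors were split. In the pectin enzyme list, 66 of its 394 tested unigenes were higher in the tube and 24 lower (16.8% and 6.09%, median log2 fold change 0.07). A pectinesterase (Cluster-20417.206905) had a median of 12.8 FPKM in the tube and 0.465 FPKM in the lobes and was higher in all 21 tubes (4.13 ± 0.16), whereas pectate lyase 15-like had a median of 585 FPKM in the tube and 1172 FPKM in the lobes and was lower in all 21 (-1.40 ± 0.13). Expansin-A6-like, of the proteins that loosen cell walls, had a median of 53.5 FPKM in the tube and 21.1 FPKM in the lobes (1.13 ± 0.15), and xyloglucan endotransglucosylase 23-like had a median of 381 FPKM in the tube and 875 FPKM in the lobes (-1.23 ± 0.13). LOG3-like, of the enzymes that activate cytokinin, had a median of 3.36 FPKM in the tube and 0.07 FPKM in the lobes (4.08 ± 0.19), and early nodulin-like protein 3 had a median of 11.4 FPKM in the tube and 0.255 FPKM in the lobes (4.34 ± 0.17), both higher in every tube. In the auxin list, 48 of its 362 tested unigenes were higher in the tube and 57 lower (13.3% and 15.7%, median log2 fold change -0.04). Auxin response factor 2-like ranged from 16.3 to 52.7 FPKM in the tube (median 30.6), against 2.19 to 15.8 FPKM in the lobes (median 10.1), without overlap (1.42 ± 0.12). YUCCA2-like, an enzyme of auxin synthesis, had a median of 20.8 FPKM in the tube and 71.5 FPKM in the lobes (-2.06 ± 0.17), IAA4-like, a repressor of auxin response, had a median of 107 FPKM in the tube and 212 FPKM in the lobes (-1.38 ± 0.15), and SAUR32-like (Cluster-20417.113183) ranged from 0.07 to 10 FPKM in the tube (median 4.16), against 8.32 to 70.4 FPKM in the lobes (median 43.2). All 3 of these were lower in every tube, and SAUR32-like changed most (-3.48 ± 0.13). THESEUS 1-like, a receptor kinase that senses the state of the cell wall, was lower in all 21 tubes as well (a median of 3.67 FPKM in the tube and 12.5 FPKM in the lobes, -1.93 ± 0.08).

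The pigment, cuticle and scent lists had more unigenes lower than higher in the tube. Their summed FPKM was lower in 21, 21 and 20 of 21 tubes. In the flavonoid and anthocyanin list, 8 of its 121 tested unigenes were higher in the tube and 20 lower (6.61% and 16.5%, median log2 fold change -0.42), and its summed FPKM was lower in the tube in all 21 flowers (4532 to 39508 in the tube (median 16942), against 7847 to 91056 in the lobes (median 32852)). The flavanone 3-dioxygenase F3H1-like unigene (Cluster-20417.242933), of an early step that leads to anthocyanins, ranged from 161 to 4102 FPKM in the tube (median 1725), against 436 to 7772 FPKM in the lobes (median 4185). The ranges overlapped, but within each flower the tube was lower (-1.47 ± 0.06, edgeR adjusted p = 1.25e-27). A further F3H1-like unigene (-1.50 ± 0.07) and a naringenin dioxygenase (-1.48 ± 0.07) gave nearly equal log2 fold changes. Leucoanthocyanidin dioxygenase, which acts late in the pathway, had a median of 1438 FPKM in the tube and 2459 FPKM in the lobes and fell short of the fold threshold (-0.81 ± 0.09). In the phenylpropanoid list, which feeds this pathway and lignin, 8 of its 169 tested unigenes were higher in the tube and 23 lower (4.73% and 13.6%, median log2 fold change -0.39). Cinnamate 4-monooxygenase had a median of 35.1 FPKM in the tube and 67.9 FPKM in the lobes (-1.23 ± 0.11), and phenylalanine ammonia-lyase 2-like had a median of 99.4 FPKM in the tube and 166 FPKM in the lobes (-1.07 ± 0.10).

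In the cuticle wax and cutin list, 35 of its 283 tested unigenes were higher in the tube and 65 lower (12.4% and 23%, median log2 fold change -0.25), both shares above the 7.42% higher and 5.23% lower over all unigenes. The summed FPKM was lower in the tube in all 21 flowers (3103 to 22399 in the tube (median 15028), against 13580.2 to 34299 in the lobes (median 26408)). CYP86B1-like (Cluster-20417.252938), a fatty acid hydroxylase, ranged from 281 to 1988 FPKM in the tube (median 869), against 1756 to 4957 FPKM in the lobes (median 2789), and was lower in every tube (-1.84 ± 0.09). The same was true of a GL1-5-like alkane synthesis enzyme (a median of 1525 FPKM in the tube and 3125 FPKM in the lobes, -1.17 ± 0.08) and a feruloyl transferase of suberin (a median of 1.85 FPKM in the tube and 26.8 FPKM in the lobes, -4.21 ± 0.18). Some unigenes outside the list were also lower in every tube: long chain acyl-CoA synthetase 4-like (a median of 212 FPKM in the tube and 378 FPKM in the lobes, -1.25 ± 0.05), ABCG6-like (a median of 111 FPKM in the tube and 282 FPKM in the lobes, -1.40 ± 0.06) and a plastid 3-oxoacyl-ACP reductase (a median of 493 FPKM in the tube and 1159 FPKM in the lobes, -1.43 ± 0.06). Another GL1-5-like unigene was higher in 17 of 21 tubes (a median of 47.5 FPKM in the tube and 13.1 FPKM in the lobes, 1.58 ± 0.19). In the lipid-transfer protein list, 13 of its 64 tested unigenes were higher in the tube and 18 lower (20.3% and 28.1%, median log2 fold change -0.29). The most abundant, lipid-transfer protein 2B-like, ranged from 3099.6 to 12833 FPKM in the tube (median 7645), against 7961 to 24329 FPKM in the lobes (median 14205), and was lower in every tube (-1.19 ± 0.07). In the HD-ZIP list, 6 of its 130 tested unigenes were higher in the tube and 15 lower (4.62% and 11.5%, median log2 fold change -0.04). Of those named for factors of the epidermis, MERISTEM L1-like had a median of 8.67 FPKM in the tube and 22.3 FPKM in the lobes (-1.56 ± 0.10) and ROC2-like had a median of 12 FPKM in the tube and 33.9 FPKM in the lobes (-1.67 ± 0.16), both lower in all 21 tubes, whereas HOX14-like, of another HD-ZIP class, was higher in all 21 (a median of 4.81 FPKM in the tube and 0.3 FPKM in the lobes, 2.59 ± 0.17).

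In the scent list, 6 of its 114 tested unigenes were higher in the tube and 12 lower (5.26% and 10.5%, median log2 fold change -0.33). Eugenol synthase 1-like (Cluster-20417.328548), which makes a phenylpropene scent compound in petunia, ranged from 5.81 to 57.8 FPKM in the tube (median 23.2), against 48.8 to 144 FPKM in the lobes (median 94.2), lower in all 21 tubes (-2.29 ± 0.09). A phenylacetaldehyde synthase ranged from 13.9 to 6465 FPKM in the tube (median 184), against 42.1 to 16591 FPKM in the lobes (median 1875), with a wide overlap, and was lower in 20 of 21 tubes (-2.29 ± 0.22). The most abundant monoterpene synthase stayed under the threshold (a median of 5162 FPKM in the tube and 6744 FPKM in the lobes, -0.57 ± 0.08). EOBII-like, named for a MYB activator of scent genes in petunia, ranged from 7.08 to 571 FPKM in the tube (median 379), against 274 to 961 FPKM in the lobes (median 652), and the lowest tube value was again the 'Gipsy Queen' tube that stood apart. It was lower in all 21 tubes (-1.20 ± 0.12), and Myb340-like, an activator of phenylpropanoid genes in snapdragon, in 20 (a median of 76.5 FPKM in the tube and 177 FPKM in the lobes, -1.35 ± 0.15). MYB2-like (2.19 ± 0.14) and MYB62-like (2.88 ± 0.18) were higher in 20 of 21 tubes each. Trans-resveratrol di-O-methyltransferase-like unigenes were abundant in both partitions, with a median of 1775 FPKM in the tube and 3985 FPKM in the lobes for 1 of them, whose log2 fold change of -1.12 ± 0.14 passed the threshold narrowly. In the aquaporin list, 16 of its 91 tested unigenes were higher in the tube and 16 lower (17.6% and 17.6%, median log2 fold change -0.18): TIP1-1-like, a vacuolar water channel, had a median of 2369.9 FPKM in the tube and 4214 FPKM in the lobes (-1.25 ± 0.10), and NIP5-1-like, a boric acid channel in Arabidopsis, had a median of 170.1 FPKM in the tube and 46.3 FPKM in the lobes (1.53 ± 0.11). In the heat shock list, 2 of its 321 tested unigenes were higher in the tube and 24 lower (0.623% and 7.48%, median log2 fold change -0.35), and a small class II heat shock protein had a median of 590.4 FPKM in the tube and 1221 FPKM in the lobes (-1.31 ± 0.13). Jasmonate-induced oxygenase 4-like (Cluster-20417.139461), which inactivates jasmonic acid in Arabidopsis, ranged from 3.03 to 18.7 FPKM in the tube (median 9.93), against 24.2 to 74.8 FPKM in the lobes (median 39.2), with every tube below every lobe value (-2.37 ± 0.10).

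The tube was also set against each lobe whorl. Against the outer lobes alone, 8574 unigenes were higher in the tube (7.61%) and 4923 lower (4.37%), and against the inner lobes alone 7982 were higher (7.08%) and 7048 lower (6.25%). Of these, 6284 were higher and 3526 lower against both. By contrast, 7 unigenes were higher against the outer and lower against the inner lobes. YABBY 2-like differed less from the outer lobes (3.05) than from the inner lobes (3.99), and MADS1-like more (7.28 against 6.22). Whether these outer and inner values differ was not tested here.

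The difference between tube and lobes varied among the 7 cultivars for 4704 of 112719 unigenes (4.17%, edgeR F test on the interaction). Without the flower block the count was 296, and by limma-trend 7660. Within single cultivars, with 3 flowers each, between 3420 ('Delft Blue') and 5830 ('Gipsy Queen') unigenes were higher in the tube and between 2376 ('Delft Blue') and 3206 ('China Pink') lower. These were shares of all unigenes tested of 3.87% higher and 2.36% lower in 'Jan Bos', 4.45% and 2.18% in 'Pink Pearl', 5.17% and 2.46% in 'Gipsy Queen', 3.81% and 2.23% in 'City of Haarlem', 4.06% and 2.84% in 'China Pink', 3.03% and 2.11% in 'Delft Blue', and 4.17% and 2.39% in 'Peter Stuyvesant'. On simulated counts this test found 3 of 195 unigenes changed by 3-fold in 1 cultivar (1.54%), and 94 of 194 changed by 10-fold (48.5%). With 2 flowers a cultivar, between 1792 and 2178 unigenes passed. Variation was called for 1269 DEGs, 8.9% of them, against 3.49% of the other unigenes. The smallest p among named unigenes belonged to a lipid-transfer protein named Lac s 1 (Cluster-20417.236614; edgeR adjusted p = 9.39e-16). Its mean was 460.0 FPKM in the tube and 16.5 FPKM in the lobes of 'Jan Bos', but 613 FPKM in the tube and 803 FPKM in the lobes of 'China Pink'. Chitinase 12-like (adjusted p = 1.24e-12 by the same edgeR test) was 7.20 higher on the log2 scale in 'China Pink' tubes and 0.63 in 'Gipsy Queen' tubes, where the lobes also held a mean of 12245 FPKM.

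Members of the nitrate and peptide transporter family, NPF2.11-like and NPF2.10-like, also varied. NPF2.11-like was lower in the tube in 'Jan Bos', with means of 6.22 FPKM in the tube and 82.4 FPKM in the lobes (-3.86 on the log2 scale). It was higher in 'Pink Pearl' (5.01), 'Gipsy Queen' (4.92), 'China Pink' (4.08) and 'Delft Blue' (3.79), and close to 0 in 'City of Haarlem' (0.16) and 'Peter Stuyvesant' (-0.20). NPF2.10-like gave -3.82 in 'Jan Bos' and 5.42 in 'Pink Pearl'. WEB1-like, named for a protein of chloroplast movement, was lower in the tube in 'Delft Blue' (-2.34), 'City of Haarlem' (-3.66) and 'China Pink' (-2.05) and higher in 'Jan Bos' (3.19). SIEVE ELEMENT OCCLUSION B-like, a phloem protein, was higher by 3.35 in 'Gipsy Queen' and by 0.33, without passing the test, in 'Delft Blue'. In contrast, MADS1-like lay between 5.83 and 9.06 in all cultivars and F3H1-like between -1.68 and -1.21, and variation was not called for either (adjusted p = 0.678 and 0.505 by edgeR).

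**Figure D4:**
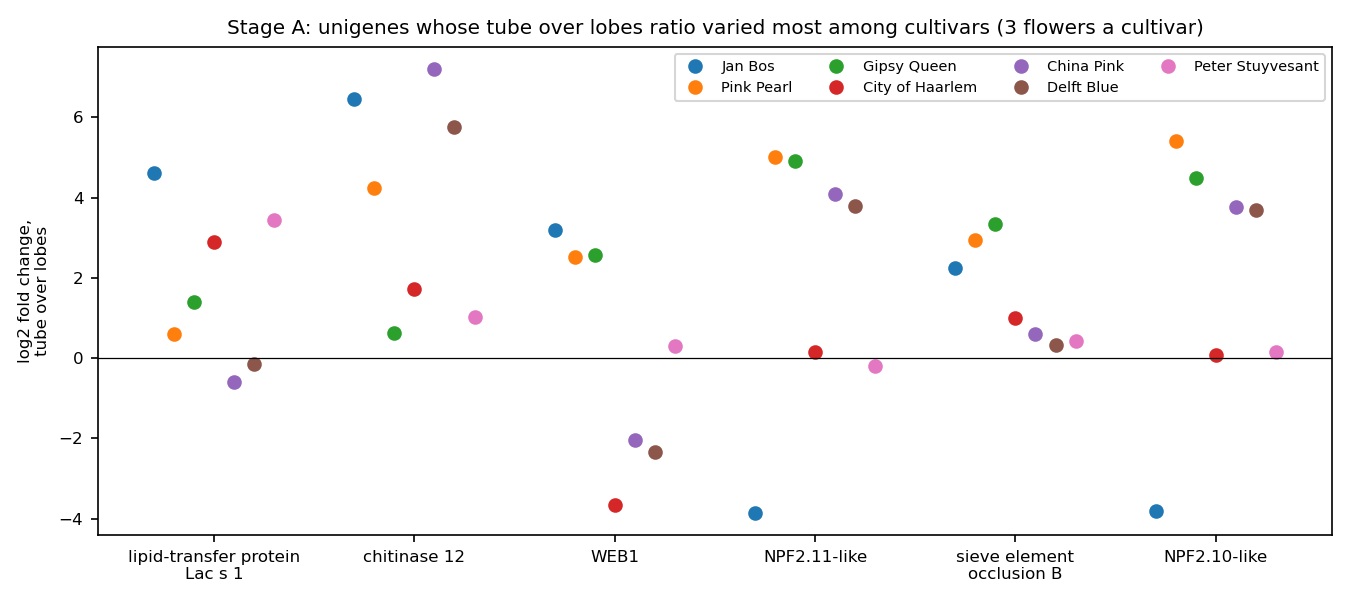
Log2 fold change of perianth tube over lobes at Stage A in each of the 7 cultivars (1 point each, 3 flowers a cultivar) for the 6 named unigenes with the smallest p for variation among cultivars. NPF2.11-like lies at -3.86 in 'Jan Bos' and at 5.01 in 'Pink Pearl', and WEB1-like at -3.66 in 'City of Haarlem' and 3.19 in 'Jan Bos'.

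The difference in open flowers was also set against that in buds. The log2 fold change of tube over lobes was larger at Stage A than at Stage C for 2927 unigenes (2.6%) and smaller for 1113 (0.987%). It was larger than at Stage B for 8488 (7.53%) and smaller for 3642 (3.23%). These comparisons are signed, so a smaller value can be a wider gap. Of the 1113, 588 were DEGs lower in the tube at Stage A. The floral C class list had a median log2 fold change of 4.64 at Stage B and 5.36 at Stage A, and the KNOX and BELL list -0.01 and 0.33. None of the 5 tested floral C class unigenes was called different between Stages A and B. Of the 60 tested KNOX and BELL unigenes, 2 had a larger log2 fold change at Stage A than at Stage B and 7 a smaller one. Among the members of these lists, MADS1-like stood at 6.09, 6.75 and 6.80 at Stages B, C and A, and knotted-1-like at 9.29, 6.15 and 5.87. The lobes of green buds held 0.0421 FPKM of knotted-1-like on average and those of open flowers 0.428 FPKM, and its difference was smaller at Stage A (A minus B -3.42 ± 0.63, edgeR adjusted p = 3.24e-06).

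The potassium channels AKT1-like and KAT1-like and the photosynthesis list had opposite signs in green buds and open flowers. AKT1-like averaged 0.596 FPKM in the tube and 4.72 FPKM in the lobes at Stage B, but 34 and 1.8 FPKM at Stage A, a difference of 6.78 ± 0.42 (SE) between the log2 fold changes (edgeR adjusted p = 5.43e-35). KAT1-like moved alike, with log2 fold changes of -1.72 at Stage B and 3.06 at Stage A. The summed FPKM of the photosynthesis list had medians of 51030 in the tube and 122816 in the lobes at Stage B, 9921 and 5909 at Stage C, and 3496 and 1901 at Stage A. The tube was the higher one in 0, 17 and 20 of 21 flowers at these stages. For 130 of 197 unigenes of the list, against 7.53% over all unigenes, the signed log2 fold change was higher at Stage A than B. The list median went from -1.13 at Stage B to 0.72 at Stage A.

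Several members changed in their difference between tube and lobes after the green bud stage. STIG1-like averaged 0.0467 FPKM in tubes and 0.0683 FPKM in lobes of green buds, 18.1 and 1.22 FPKM at Stage C, and 39.5 and 0.144 FPKM at Stage A (A minus B 8.30 ± 1.71, edgeR adjusted p = 2.93e-05). ACC oxidase 2-like had log2 fold changes of 0.55, -0.05 and 1.76 at Stages B, C and A, and its tube mean was 134 FPKM at Stage C and 2434 FPKM at Stage A (A minus C 1.81 ± 0.23, edgeR adjusted p = 7.07e-10). Eugenol synthase 1-like was nearly undetected in green buds and stood at -1.62 at Stage C and -2.25 at Stage A. SAUR32-like stood at 0.88, -1.35 and -3.44. Histone H2B.1-like, which is made in dividing cells, averaged 248 FPKM in tubes and 36.9 FPKM in lobes of green buds but 77.3 and 184 FPKM at Stage A. For 66 of 251 tested cell division unigenes, against 3.23% over all unigenes, the signed log2 fold change was lower at Stage A than B. In the heat shock list the same held for 68 of 321, and the list median went from 0.17 to -0.32.

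**Figure D5:**
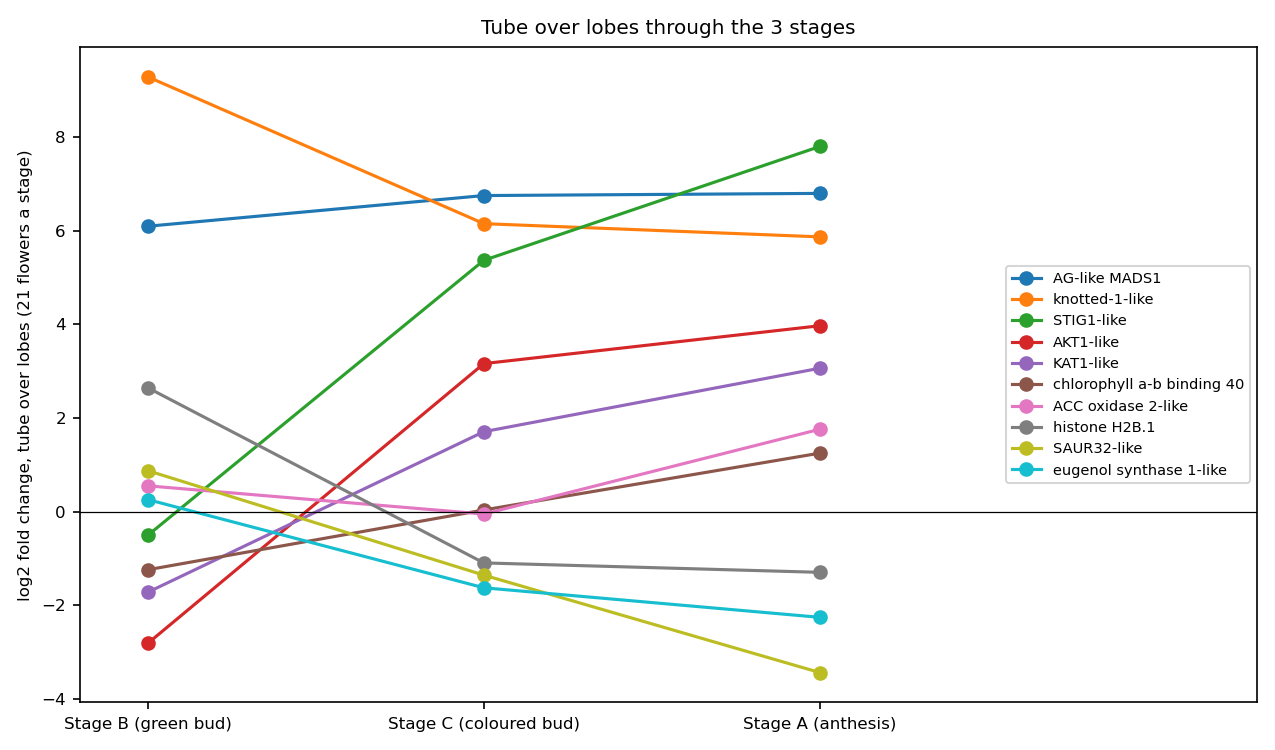
Log2 fold change of perianth tube over lobes at Stages B, C and A, 21 flowers a stage, for 10 unigenes (1 line each). MADS1-like and knotted-1-like lie above 5 at all stages, AKT1-like passes from -2.81 at Stage B to 3.97 at Stage A, and histone H2B.1-like from 2.65 to -1.29.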

How the data were processed

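Poly-A RNA of the perianth samples of 63 flowers was sequenced by the authors as paired-end reads, assembled without a genome (Trinity, clustered with Corset), and counted with RSEM on Bowtie alignments. Versions were not given in the sources used here. The deposited tables hold RSEM expected counts for 494326 unigenes, the authors' FPKM values, unigene lengths and, per the file headers, total and mapped read pairs (counts and percent). Swiss-Prot matched 98561 unigenes. The members and gene lists were chosen with earlier results of these data known.

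Expected counts were rounded and tested with edgeR 4.0.16 in R 4.3.3 (TMM, quasi-likelihood F test, tube minus the mean of outer and inner lobes, flower as a block). The filter kept unigenes that reached 10 counts in 3 or more of the 63 Stage A libraries. DEGs passed an absolute log2 fold change of 1 and, after Benjamini-Hochberg adjustment over all unigenes tested, a p of 0.05. Standard errors are the absolute log2 fold change divided by the square root of F. Variation among cultivars was tested by interaction contrasts, and stages by the same model over all libraries. Pairing was checked after removal of group means. All 63 libraries then correlated best with another partition of their own flower (median r 0.30, lowest 0.05). The median with other flowers was -0.15. Removing the mean of 3 flowers forces that value below 0 wherever partitions of a flower correlate, so it is no separate contrast. No 2 libraries were near-identical (highest R2 of replicates 0.91). In simulations with 200 of 20000 unigenes changed 3-fold, 177 of 192 that passed the filter were recovered, with 3 false calls. With 200 of 5000 changed at Stage A only, 154 of 192 were recovered. These simulated counts had the same dispersion for every unigene and no variation among flowers in the tube difference. They do not show how many false calls such variation would give.

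The 39 lists were unigenes whose Swiss-Prot description held fixed words. After the matches were seen, 2 unigenes were added to the KNOX and BELL list, and 11 were taken out of organ boundary, 3 of floral C class, 188 of pectin enzymes and 177 of defence, where a word lay inside another name or matched inhibitors or another class. Named unigenes came from a rule: for each direction, the 12 DEGs of smallest p that had at least 5 FPKM and moved alike in all 21 flowers, up to 4 DEGs a direction and the most abundant uncalled member of each list, the 6 with the smallest p for variation among cultivars, and 4 a direction for each stage difference. The rule named 336 unigenes. The text describes a subset chosen after the values were seen. Alternatives covered normalization (DESeq2 1.42.0 size factors), tools (DESeq2, limma-trend 3.58.1), the block, filters and left-out flowers and cultivars.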

Additional observations from a re-analysis of the deposited data

Results flagged for a closer look

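Members were listed here where the difference between tube and lobes itself differed by a test, either among the 7 cultivars or between Stage A and an earlier stage (named unigenes only, chosen for the smallest p). Variation among cultivars had an edgeR adjusted p of 9.39e-16 for the lipid-transfer protein Lac s 1, 1.24e-12 for chitinase 12-like, 5.12e-12 for WEB1-like, 1.81e-11 for NPF2.11-like, 1.04e-10 for SIEVE ELEMENT OCCLUSION B-like and 4.69e-10 for NPF2.10-like. Their values in each cultivar are those of the plot by cultivar.

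Between Stage A and Stage C, the log2 fold change of tube over lobes was larger at Stage A by 4.73 for cytochrome P450 71B9-like, by 3.84 for cytochrome P450 736A117-like, by 2.19 for a chemocyanin and by 1.8 for NRT1/PTR FAMILY 8.1-like. It was smaller at Stage A for the flavonoid 3'-monooxygenase CYP75B137-like unigene (A minus C -2.06), synaptotagmin-5-like (-1.71), aspartyl protease 25-like (-1.62) and an ETHE1-like persulfide dioxygenase (-1.38).

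Between Stage A and Stage B, the log2 fold change was larger at Stage A by 5.4 for early nodulin-like protein 3, by 2.61 for a thylakoid lumenal protein, by 1.95 for plastid ribosomal protein 3 and by 1.53 for HHL1-like, a chloroplast protein. It was smaller at Stage A for histone H2B.1-like (A minus B -3.94), a further H2B.1-like unigene (-2.78), histone H2A.2-like (-3.18) and SMC4-like, a condensin subunit (-3.51).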

How the results depend on the processing

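With no replicate block and cultivar kept as a term, 8228 unigenes were higher in the tube and 5244 lower, in place of 8359 and 5893, and with neither block nor cultivar 7040 and 3460. With the outer and inner lobes of a flower summed, 7367 were higher and 6805 lower. The tests among cultivars and between stages kept outer and inner lobes as separate libraries in every fit. Without the block, 296 in place of 4704 varied among cultivars. The log2 fold change was then larger at Stage A than at Stage C for 1978 and smaller for 616, in place of 2927 and 1113. The stricter rules on low counts removed most calls, since fewer unigenes were tested: 2942 higher and 2114 lower with 10 counts in 21 libraries (3133 and 2078 against outer lobes, 2933 and 2481 against inner lobes) and 3232 and 2250 with edgeR's own filter. By limma-trend 3668 were higher and 2226 lower, and without a fold threshold 21966 and 22025. With one replicate number left out, 7135 to 7793 were higher and 4936 to 5449 lower (7060 to 7562 and 4156 to 4467 against outer lobes, 6783 to 7294 and 5617 to 5955 against inner lobes). Variation among cultivars was called for 7660 by limma and for 1792 to 2178 with a replicate left out. For Stage A against C, larger log2 fold changes numbered 1203 by limma, 1243 with the 21-library filter and 1659 to 2436 with a replicate left out. Smaller ones numbered 597 with that filter and 811 to 939. For Stage A against B, larger ones numbered 4963 by limma, 3651 with that filter and 7032 to 7350, and smaller ones 1894 and 2810 to 3291. The libraries doubted were left out after seeing the data: 8257 were higher and 5445 lower without 'Gipsy Queen' flower 2, 7923 and 5524 without the 3 flowers with the highest photosynthesis sums, 8611 and 5225 without 'China Pink' flower 3, 8304 and 5143 without the 3 flowers with the highest pollen sums, and 8461 and 5848 without 'Peter Stuyvesant' flower 3. With the 21-library filter more unigenes were lower than higher in the MYB (9 higher, 10 lower), cell division (4 and 13) and gibberellin lists (5 and 8), and the median of the 5 RAV unigenes tested was -0.53. The balance of calls also changed under some alternatives in the cysteine protease, starch, expansin, lipid-transfer protein and resveratrol O-methyltransferase-like lists.

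The difference in mapping rate was -0.13 percentage points and 0.0438 against inner lobes alone (-0.411 to 0.109 with a replicate left out). For total counts it was -244965 and 38873 against inner lobes alone (-489647 to 49021.5), and for the number of unigenes with a count 1158 (-2086 to 3524). The share in the 100 most counted unigenes differed by -4.06 to -3.64 points.

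Of 2921 refitted values (the difference of tube and lobes of 117 unigenes, and the variation and stage values of those named for them), 2863 kept their direction and their side of the threshold. Among called unigenes only WEB1-like, which varied among cultivars, changed direction (0.58 by DESeq2), and its call was lost without the block (-0.52), by limma-trend (-0.27), without replicate 2 (-0.93) and without 'City of Haarlem' (-0.60), 'China Pink' (-0.87) or 'Delft Blue' (-0.78). Of unigenes not called, CP26-like was at 0.47 with neither block nor cultivar, 0.0766 without 'Jan Bos', 0.0344 without 'Delft Blue' and 0.0451 without 'Peter Stuyvesant' (-0.226 to 0.0264 with a replicate number or a single doubted flower left out). Without the 3 flowers with the highest photosynthesis sums CP26-like was at -0.478. AGL11-like was at -0.013 with neither block nor cultivar, -0.0378 with the lobes summed, -0.0542 without 'Pink Pearl' and -0.0172 without 'Peter Stuyvesant' (-0.0719 to 0.091 with a replicate number or a doubted flower left out). SUT1-like was at 0.0232 with no replicate block, 0.0694 with neither block nor cultivar, 0.0261 with DESeq2 size factors, 0.0255 by DESeq2, 0.00801 with the 21-library filter, 0.0163 with edgeR's own filter, 0.0124 without 'Jan Bos', 0.109 without 'City of Haarlem' and 0.0295 without 'Peter Stuyvesant' (-0.0876 to 0.0361 with a replicate number or a single doubted flower left out). It was at -0.0955 without the 3 flowers with the highest photosynthesis sums. Calls close to the fold threshold were lost for GASA1-like, the resveratrol O-methyltransferase-like unigene and phenylalanine ammonia-lyase 2-like (log2 fold changes up to -0.87, -0.89 and -0.97), for SIEVE ELEMENT OCCLUSION B-like (0.97) and chlorophyll a-b binding protein 40 (0.98) without 'Gipsy Queen', and for expansin-A6-like (0.99) without 'Delft Blue'. With neither block nor cultivar, the calls of Lac s 1 (0.61), NPF2.10-like (0.85), NPF2.11-like (0.95), chitinase 12-like (1.45) and thaumatin-like protein 1a (-1.10) were lost as well, and by DESeq2 that of DROOPING LEAF-like (3.29). Leucoanthocyanidin dioxygenase passed the fold threshold without the block (-1.02). A further 18 values could not be fitted because a filter removed the unigene, in some cases once flowers were left out. The cause of the other changes was not tested. Depth limits the lowest members, such as MADS1-like in the lobes, where 18 of 42 libraries held a count.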

Other observations

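Abscisic acid synthesis, which starts from carotenoids cut by NCED enzymes, was split between unigenes of the same family. An NCED1-like unigene had a median of 14.3 FPKM in the tube and 2.05 FPKM in the lobes (log2 fold change 2.22 ± 0.17), and another had a median of 255 FPKM in the tube and 432 FPKM in the lobes (-1.21 ± 0.16). NCED3-like was not called, with a median of 689 FPKM in the tube and 667 FPKM in the lobes (-0.45 ± 0.15), lower in 13 of 21 tubes. In the carotenoid list as a whole, 12 of its 101 tested unigenes were higher in the tube and 9 lower (11.9% and 8.91%, median log2 fold change -0.08), beside 7.42% higher and 5.23% lower over all unigenes tested, to which the shares of the other lists also compare. In the gibberellin and GASA list, 14 of its 127 tested unigenes were higher in the tube and 9 lower (11% and 7.09%, median log2 fold change 0.09), and GASA1-like, a small secreted peptide, had a median of 573 FPKM in the tube and 1150.5 FPKM in the lobes (-1.03 ± 0.10). In the jasmonate list, 21 of its 207 tested unigenes were higher in the tube and 9 lower (10.1% and 4.35%, median log2 fold change 0.15), and lipoxygenase 4-like had a median of 211 FPKM in the tube and 429.6 FPKM in the lobes (-1.27 ± 0.08). In the NAC list, 23 of its 150 tested unigenes were higher in the tube and 9 lower (15.3% and 6%, median log2 fold change 0.11), with a median of 24.4 FPKM in the tube and 68.4 FPKM in the lobes for NAC21/22-like (-1.68 ± 0.13). In the bHLH list, 24 of its 151 tested unigenes were higher in the tube and 9 lower (15.9% and 5.96%, median log2 fold change 0.16). In the MYB list, 25 of its 184 tested unigenes were higher in the tube and 15 lower (13.6% and 8.15%, median log2 fold change 0.07). The surplus of higher members lay mainly in unigenes of low level. Among NAC members with a mean of at least 1 FPKM, 6 of 99 were higher and 8 lower. With the same limit, the bHLH list had 8 of 92 higher and 7 lower, and the MYB list 10 of 118 and 12. For gibberellin these counts were 6 of 82 and 8, and for carotenoids 8 of 71 and 8. In the RAV list, 3 of its 11 tested unigenes were higher in the tube (27.3%, median log2 fold change 0.22), though by limma-trend its median was -0.10, with 1 unigene called, lower in the tube.

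In the xylem and secondary wall list, 3 of its 45 tested unigenes were lower in the tube (6.67%, median log2 fold change -0.19), a share near that over all unigenes, and its summed FPKM was 123 to 345 in the tube (median 249), against 234 to 482 in the lobes (median 351), lower in all 21 tubes. In the phloem list, 7 of its 74 tested unigenes were higher in the tube and 3 lower (9.46% and 4.05%, median log2 fold change -0.01). A second SIEVE ELEMENT OCCLUSION B-like unigene had a median of 4.41 FPKM in the tube and 0.215 FPKM in the lobes (3.93 ± 0.20), and the sucrose transporter SUT1-like was not called (a median of 136 FPKM in the tube and 129.6 FPKM in the lobes, -0.02 ± 0.10). In the sugar transport and cleavage list, 29 of its 253 tested unigenes were higher in the tube and 10 lower (11.5% and 3.95%, median log2 fold change -0.07), and a putative invertase inhibitor had a median of 21.4 FPKM in the tube and 127 FPKM in the lobes (-2.38 ± 0.18). In the starch list, 4 of its 135 tested unigenes were higher in the tube and 6 lower (2.96% and 4.44%, median log2 fold change 0.07). In the expansin and xyloglucan endotransglucosylase list, 16 of its 179 tested unigenes were higher in the tube and 20 lower (8.94% and 11.2%, median log2 fold change -0.13). In the cysteine protease and autophagy list, 7 of its 149 tested unigenes were higher in the tube and 9 lower (4.7% and 6.04%, median log2 fold change -0.12), and the senescence-specific protease SAG39-like had a median of 4.29 FPKM in the tube and 21.9 FPKM in the lobes (-2.70 ± 0.18). In the cell division list, 32 of its 251 tested unigenes were higher in the tube and 19 lower (12.7% and 7.57%, median log2 fold change 0.02), and cyclin-B2-2-like had a median of 1.92 FPKM in the tube and 0.385 FPKM in the lobes (2.98 ± 0.31). Of the 130 cell division unigenes with a mean of at least 1 FPKM, 10 were higher and 10 lower. In the list of gynoecium, ovule and nectary proteins, 2 of its 4 tested unigenes were higher in the tube (50%, median log2 fold change 2.22), and in the resveratrol O-methyltransferase-like list, 3 of its 20 tested unigenes were higher in the tube and 5 lower (15% and 25%, median log2 fold change -0.56).

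Synaptotagmin-5-like had a median of 2.75 FPKM in the tube and 22.6 FPKM in the lobes (-2.73 ± 0.11), and noroxomaritidine synthase-like, named for an enzyme of alkaloid synthesis in daffodil, had a median of 108 FPKM in the tube and 378 FPKM in the lobes (-1.84 ± 0.08). Another phenylacetaldehyde synthase had a median of 148 FPKM in the tube and 1478 FPKM in the lobes (-2.91 ± 0.21). The plasma membrane aquaporin PIP1-1-like (a median of 2013 FPKM in the tube and 3172 FPKM in the lobes, -0.89 ± 0.07), a phenylalanine ammonia-lyase (a median of 1289 FPKM in the tube and 1526 FPKM in the lobes, -0.53 ± 0.11) and the most abundant resveratrol O-methyltransferase-like unigene (a median of 7643 FPKM in the tube and 10649 FPKM in the lobes, -0.55 ± 0.13) were not called.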
